A study of Mus musculus with 8 samples.

Results

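The genes described here are 51 ligands and receptors of axon guidance, taken from a fixed list of gene names out of 34614 protein-coding and long noncoding mouse genes. They comprise 16 semaphorins, 7 plexins, 2 neuropilins, 3 Slits, 3 Robo receptors, netrin 1, 5 netrin receptors, 9 Eph receptors and 5 ephrins. Each gene was followed through the CpG cytosines inside its mm10 span or within 5 kb of it that had at least 10 reads in all 8 libraries, and all 51 genes held at least 1 such cytosine. The libraries came from reduced representation bisulfite sequencing, which reads cytosine methylation in the CpG-rich fragments that a restriction digest leaves. Tissue labelled the dDG DGC layer was dissected from the brains of 4 male C57 BL/6 mice that self-administered cocaine and of 4 male C57 BL/6 mice that self-administered saline. Neither ages nor cocaine doses are given in the sources used here. The comparison asks whether methylation in and around these genes differed between cocaine and saline mice. Levels are the percent of reads that were methylated over a stretch of cytosines, and ± stands for the SD over the 4 mice of a group.

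Guidance cues steer growing axons and, in the adult brain, act on spines and synapses. Most secreted semaphorins bind neuropilins, which pass the signal through plexins, whereas membrane semaphorins bind plexins directly. Slit proteins repel axons through Robo receptors, and netrin 1 attracts axons through Dcc or repels them through Unc5 receptors. Ephrins and Eph receptors are both anchored in the membrane and signal in both directions where cells touch. Methylation at a gene start is generally low where the start lies in a CpG-rich stretch, and gene bodies of most genes are generally well methylated.

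Each library listed 1844706 to 2236384 cytosines, with a median coverage of 34 to 66 reads, and 1510385 cytosines were shared by all 8. Over these shared cytosines the mean level lay between 36.5% in cocaine mouse 3 and 38.3% in saline mouse 4. Saline mouse 1 stood apart: 14.1% of its intermediate cytosines read by 30 to 40 reads were fully methylated or fully unmethylated, against 0.504% to 2.71% in the other libraries. Interiors of marker genes for 7 cell types, granule cells, pyramidal cells, interneurons, oligodendrocytes, astrocytes, microglia and endothelium, had mean differences of -2.83 to -0.734 points, cocaine minus saline, by list. Each list had 5 interiors read, and the pyramidal list 7. Prox1, Gfap and C1qa, each lower in cocaine mice, were the marker interiors at an unadjusted p under 0.05. Over all 14641 interiors, 6.15% were lower and 0.649% higher at that p. Methylation reports no transcript level, so the labelled cell layer could not be checked by the absence of a marker. Prox1, the granule cell transcription factor, had an interior level of 12.1 ± 2.81% in the cocaine group against 17.0 ± 1.33% with saline (adjusted p = 0.705). Other marker interiors leaned the other way, such as Dsp of the granule cell list, at 61.5 ± 5.10% against 56.7 ± 3.31%, and the mean difference over the granule cell list was -0.805 points. In bulk tissue, a change in the mix of cells and a change within cells cannot be told apart, and the part of either in the differences below was not tested.

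Gene starts of most guidance genes were almost free of methylation in both groups. Strand was known for 41 of the 51 genes from RefSeq (GRCm38.p6), and 33 of these had at least 5 shared cytosines within 1 kb of the outer start. The pooled level of the 33 start windows had a median of 0.929%, and 29 of them (87.9%) lay under 5%. Over 10176 protein-coding genes the median was 0.722%, and 83.0% lay under 5%. The lowest window was that of Epha5, an ephrin-A receptor, at 0.0799%. All 4 cocaine mice and 2 saline mice read 0 there, where the shallowest library had 385 reads and so allows a level of up to 0.779%. Start windows of the semaphorin receptor Nrp1 (0.145%), of Sema6c (0.177%) and of Sema5b (0.252%) came next. At the other extreme stood Sema6b (10.3%), Ephb3 (9.50%), Efna1 (5.69%) and Plxnb2 (5.07%), the only 4 start windows above 5%. Cocaine mice had 8.99 ± 2.65% and saline mice 10.2 ± 1.59% at the Ephb3 start, and 4.86 ± 3.30% and 5.60 ± 1.94% at the Plxnb2 start. The means differed by less than the spread between mice at both.

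RefSeq promoter windows, which run from 250 bases before a start to 50 after it, gave the same picture at shorter range. The guidance genes have 56 listed starts, of which 32 held shared cytosines, and 30 of the 32 (93.8%) were under 5%. Their windows were rich in CpG, with a median of 23 per 300 bases against 7 over all 32851 listed starts. The starts of Slit3, Unc5b and Epha8 are printed below, because their genes hold differences described further on. Capitals mark the CpGs that were read in all 8 libraries. Slit3 (chr11:35121206-35121505, plus strand) had 40 of its 41 CpGs read and a pooled level of 0.675%. Unc5b (chr10:60831532-60831831, minus strand) had 25 of 36 read and a level of 0.663%. Epha8 (chr4:136956767-136957066, minus strand) has the most CpGs of any listed start among these genes, 56, of which 14 were read. Its level was 8.38 ± 2.13% in cocaine and 6.89 ± 0.257% in saline mice. Among the starts read, Epha8 and an inner start of Sema4d were the 2 not under 5%, and the latter rested on 1 cytosine.
Slit3: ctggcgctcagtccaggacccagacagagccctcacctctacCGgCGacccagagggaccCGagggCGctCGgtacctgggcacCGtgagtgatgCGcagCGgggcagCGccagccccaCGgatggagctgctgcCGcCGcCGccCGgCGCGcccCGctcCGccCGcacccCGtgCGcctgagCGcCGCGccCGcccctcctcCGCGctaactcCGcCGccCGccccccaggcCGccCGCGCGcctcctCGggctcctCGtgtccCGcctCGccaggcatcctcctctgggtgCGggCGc
Unc5b: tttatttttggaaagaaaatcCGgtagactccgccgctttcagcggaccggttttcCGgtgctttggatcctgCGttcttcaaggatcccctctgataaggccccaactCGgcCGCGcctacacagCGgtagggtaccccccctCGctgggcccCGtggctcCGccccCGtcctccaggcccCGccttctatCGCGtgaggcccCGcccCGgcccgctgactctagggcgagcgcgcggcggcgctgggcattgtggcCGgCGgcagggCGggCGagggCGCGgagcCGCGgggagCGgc
Epha8: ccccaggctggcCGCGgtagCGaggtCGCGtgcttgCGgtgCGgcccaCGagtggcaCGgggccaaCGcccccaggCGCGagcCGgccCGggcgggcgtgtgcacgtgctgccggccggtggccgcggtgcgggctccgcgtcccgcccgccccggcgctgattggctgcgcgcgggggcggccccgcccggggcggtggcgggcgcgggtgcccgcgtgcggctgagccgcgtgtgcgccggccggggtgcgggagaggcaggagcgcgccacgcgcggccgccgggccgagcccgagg

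Beyond 5 kb from the outer start, methylation was close to 0 in short CpG-rich stretches of some genes. Of the regions over 5 kb from the outer start of a gene with known strand, 16 regions in 9 genes held at least 5 CpGs at a pooled level under 5%. The highest of the 16 levels was 2.96%, in Plxnb2. A start listed by RefSeq lay within 1 kb of 8 of the 16 regions, in Robo1, Robo2, Sema4b and Plxnb2. The other regions were in Sema3a, Sema6d, Robo3, Ephb2 and Ephb3. Robo1 is the gene of a Slit receptor. Its inner start lies 636 kb inside the gene, and 2 regions at that start read 0.2996% and 0.375%. Regions at 633 kb and 654 kb had 78.3% and 95.4%. The inner start of Robo2 lies 1036 kb inside the gene, and regions of 7 and 9 CpGs there read 0.373% and 0.117%. Regions of Robo2 at 899.7 kb and 1319 kb had 38.4% and 94.3%. Nearer the outer start, Unc5a, a netrin receptor gene, has a listed start 4.26 kb inside its span. Of the 37 CpGs in the window of that start 5 were read, at 0.337%, and a run of 36 CpGs near it read 0.420%. The level of Unc5a reached 89.5% at 16.7 kb. The windows of these 3 inner starts, picked after their levels were seen, are printed below, with the CpGs read in all 8 libraries in capitals. They are Robo1 (chr16:72662899-72663198, plus strand), Robo2 (chr16:74411776-74412075, minus strand) and Unc5a (chr13:54949161-54949460, plus strand).
Robo1: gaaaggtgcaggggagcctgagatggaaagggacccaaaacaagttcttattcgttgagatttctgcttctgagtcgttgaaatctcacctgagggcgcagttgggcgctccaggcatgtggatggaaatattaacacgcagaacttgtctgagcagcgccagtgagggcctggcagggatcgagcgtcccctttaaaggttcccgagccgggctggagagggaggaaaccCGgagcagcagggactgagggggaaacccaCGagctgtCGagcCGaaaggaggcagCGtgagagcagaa
Robo2: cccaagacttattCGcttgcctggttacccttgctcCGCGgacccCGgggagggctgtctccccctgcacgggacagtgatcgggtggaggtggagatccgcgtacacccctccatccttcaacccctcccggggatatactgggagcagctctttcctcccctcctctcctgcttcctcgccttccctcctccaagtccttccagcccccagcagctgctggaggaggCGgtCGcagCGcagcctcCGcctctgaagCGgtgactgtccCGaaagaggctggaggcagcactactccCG
Unc5a: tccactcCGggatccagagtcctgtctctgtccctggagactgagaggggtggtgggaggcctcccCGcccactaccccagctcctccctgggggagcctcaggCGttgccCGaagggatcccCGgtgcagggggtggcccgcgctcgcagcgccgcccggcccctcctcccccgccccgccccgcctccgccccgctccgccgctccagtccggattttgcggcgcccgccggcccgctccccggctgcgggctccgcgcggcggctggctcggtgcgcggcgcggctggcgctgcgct

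**Figure D1:**
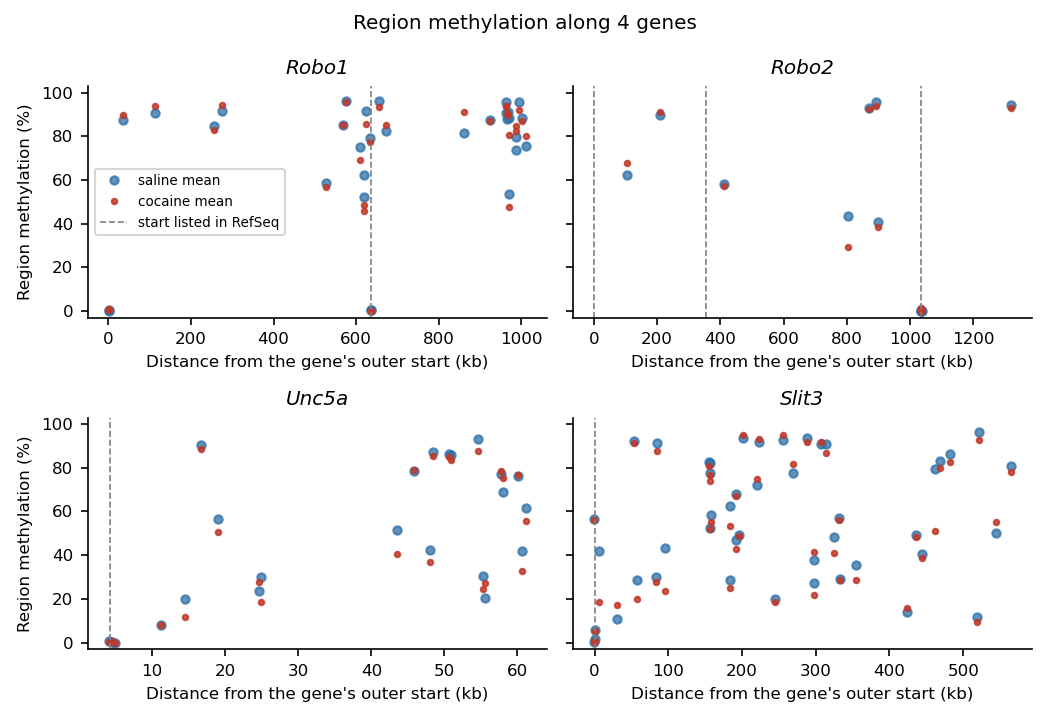
Mean methylation level (%) of each region in saline (blue) and cocaine (red) mice against its distance from the outer gene start (kb) for Robo1, Robo2, Unc5a and Slit3; dashed lines mark starts listed in RefSeq. Regions at the inner starts of Robo1, Robo2 and Unc5a read under 1% except 1 Robo2 region in cocaine mice; Slit3 holds the 461 kb region that read 50.8% in cocaine and 79.3% in saline mice.

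Over 1 kb inside their outer ends the guidance genes had a lower median level than protein-coding genes as a whole. Interiors, which exclude 1 kb at each end, had a median level of 37.4% over 49 guidance genes and of 67.2% over 12132 protein-coding genes. Epha7, an ephrin-A receptor, was lowest at 5.67%, followed by Sema4c (14.0%), Slit2 (14.9%) and Sema6a (15.4%). Ephb4 (83.9%), Epha2 (83.1%), Unc5c (82.4%) and Sema4d (76.7%) were highest. The interior of Epha7 ranged from 3.78% to 7.57% over the 8 mice and that of Ephb4 from 79.0% to 86.5%, so the gap between the extremes was far wider than the spread between mice. Pooled levels weigh each cytosine by its reads, and with each cytosine weighted alike the median over the guidance genes was 43.3% against 37.1% as a mean over mice. The value with each cytosine weighted alike was not computed for all protein-coding genes.

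The gap was present at each distance beyond 1 kb from the outer start. Between 2 and 5 kb from the outer start, 15 guidance genes had a median of 4.29% and 2576 protein-coding genes a median of 52.3%. The medians were 55.1% and 76.3% between 5 and 20 kb, 59.9% and 77.6% between 20 and 100 kb, and 63.8% and 75.7% beyond 100 kb. Upstream, from 5 to 1 kb before the start, they were 17.9% over 13 guidance genes and 61.0% over 3212 genes. These are descriptions with no test.

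**Figure D2:**
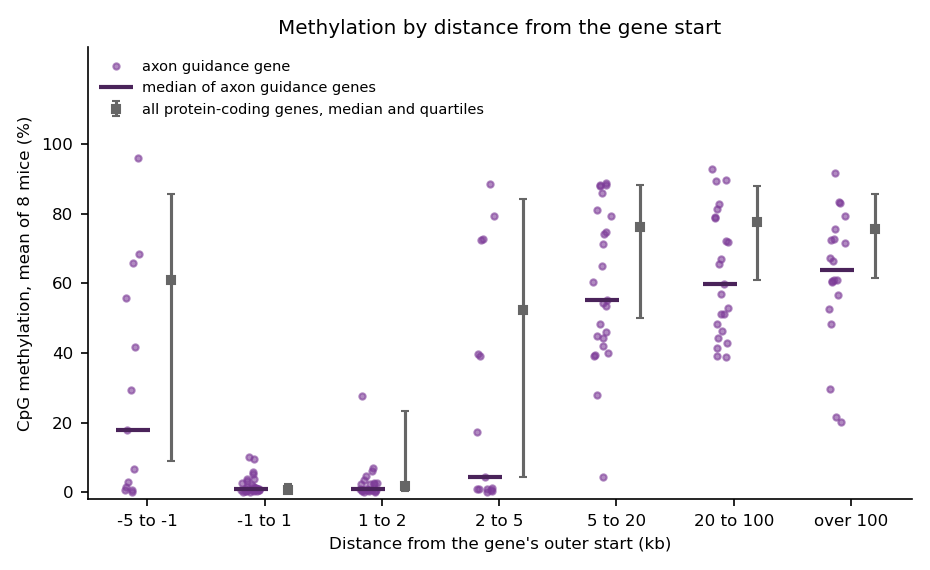
CpG methylation (%, mean of 8 mice) by distance from the outer gene start (kb): dots are guidance genes and dark bars their medians, and grey squares with bars are the median and quartiles of all protein-coding genes. Guidance gene medians lie under those of all genes at each distance beyond 1 kb, for example 55.1% against 76.3% between 5 and 20 kb.

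End windows away from starts were intermediate or high. Nrp2 reached 92.6% in the window at its far end, Plxnb2 84.8%, Robo3 68.6%, Sema6b 62.2%, Unc5a 55.9%, Sema6c 28.7% and Efna2 19.7%. In 3 genes whose 2 ends could not be told apart, a window was methylated too: Sema3f (82.1%), Slit1 (76.9%) and Sema6a (38.2%). Robo3 varied most among these, from 56.2% to 81.1% in cocaine mice and from 59.9% to 74.5% in saline mice.

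No end window, interior or region of the 51 genes passed the test for a difference between cocaine and saline mice. The test was a quasi-binomial regression of methylated and unmethylated reads with dispersions moderated by limma. Calls needed a Benjamini-Hochberg adjusted p under 0.05 over the whole table and a difference of at least 5 points, or 10 points for regions. Across the genome 0.0% of 7336 end windows, 0.0% of 14641 interiors and 0.0% of 92484 regions were called, and limma on logit levels called 0 as well. Unadjusted p under 0.05 was reached by 424 end windows, 995 interiors and 5229 regions. The values below are therefore descriptions of small or unproven differences, and genes are named by their rank of p within each direction.

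The guidance genes leaned toward lower levels in cocaine mice, as did the genome. Of 49 interiors, 40 (81.6%) had a lower mean in cocaine mice, against 71.2% of all interiors, and the median difference was -1.45 points against -1.29 points. With each cytosine weighted alike, 39 were lower and the median difference was -0.63 points. Interiors at p under 0.05 numbered 3, all lower, and the background share is 6.15% lower and 0.649% higher. All cocaine mice lay below all saline mice in 2 interiors and above them in 0, against a background of 3.93% and 0.451%. Of the 14 end windows tested, 12 had a lower mean, where 64.2% of all windows did, with a median of -2.22 points against -1.03 points. With each cytosine weighted alike, 10 were lower and the median was -0.50 points. Just 1 was at p under 0.05, and the background is 5.11% lower and 0.668% higher. The 693 regions of these genes, runs of at least 3 CpGs with gaps of at most 100 bases, gave 516 that could be tested. A lower mean was found in 329 (63.8%), against 61.8% of all regions, and the median was -1.32 points against -1.06 points. Regions at p under 0.05 were 27 lower and 10 higher, against a background of 4.57% and 1.08%. All cocaine mice lay below all saline mice in 10 regions and above them in 5, against a background of 2.59% and 0.701%. These shares are near the background, and each of the 37 regions had an adjusted p of 0.876. At least 1 region was tested in 50 of the 51 genes.

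**Figure D3:**
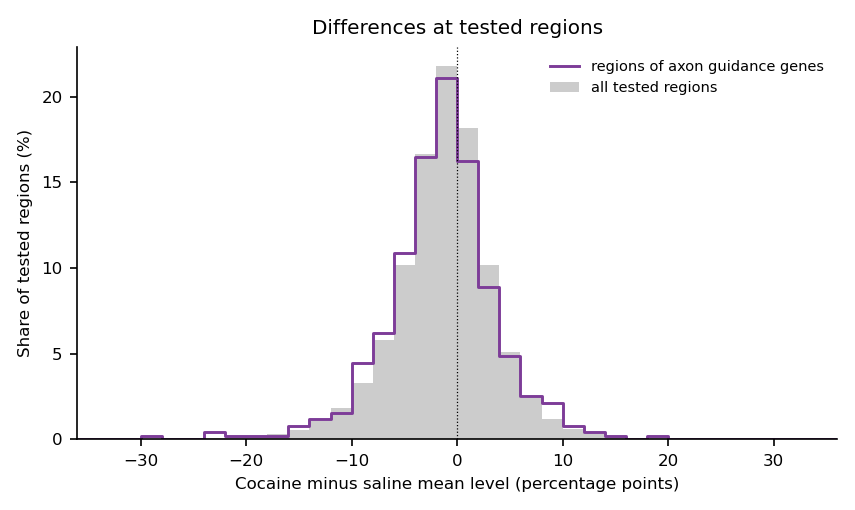
Share (%) of tested regions by the difference of cocaine minus saline mean level (percentage points, bins of 2 points), for 516 regions of guidance genes (purple line) and for all 92484 tested regions (grey bars). Both distributions peak just under 0 and the guidance gene medians lie at -1.32 points, against -1.06 points for all regions.

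Mouse by mouse, the mean interior level over the 49 genes was 42.6%, 43.8%, 41.3% and 47.8% in cocaine mice 1 to 4 and 44.2%, 46.9%, 45.9% and 45.5% in saline mice 1 to 4. Cocaine mouse 4 was the highest of all 8, and the other 3 cocaine mice were below every saline mouse. Without cocaine mouse 4, 11 interiors were at p under 0.05 and lower, where 1783 of all 14641 were, and none passed after adjustment. With coverage capped at 50 reads per cytosine the number was 13, where 1421 of all 14736 were.

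**Figure D4:**
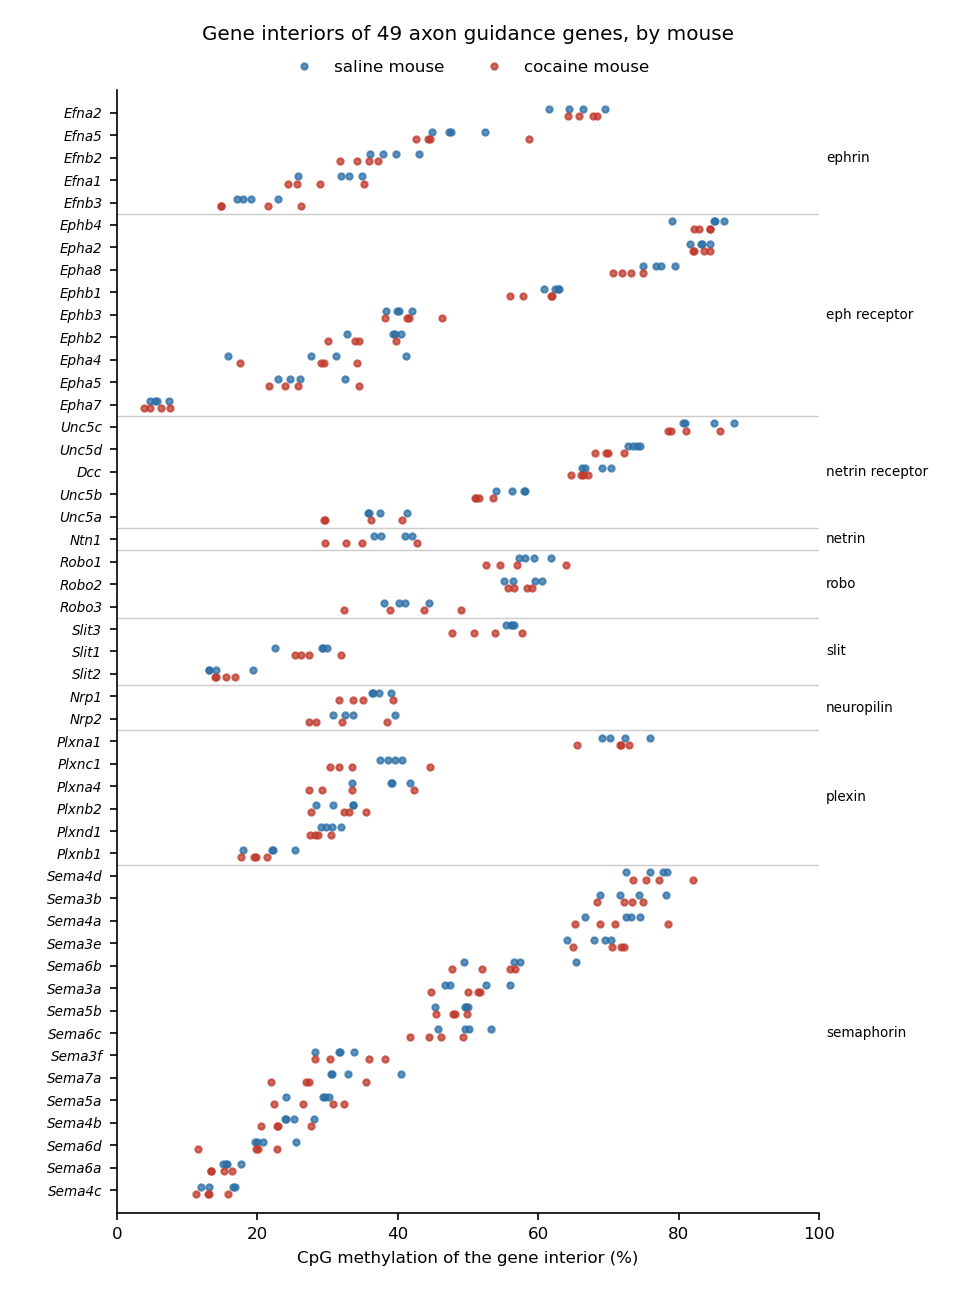
Interior methylation (%) of 49 guidance genes grouped by role, 1 dot per mouse, saline in blue above cocaine in red. Levels run from 5.67% in Epha7 to 83.9% in Ephb4, and the groups overlap in every gene except Unc5b and Unc5d. Among all 14641 tested interiors, all cocaine mice lay below all saline mice in 3.93% and above them in 0.451%.

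Sema6b, among the 16 semaphorins, encodes a membrane semaphorin that binds plexin A proteins. Its start had the smallest p of the 14 guidance gene end windows tested. The window (chr17:56139343-56141343) read 7.46%, 5.79%, 7.82% and 11.3% in cocaine mice 1 to 4 and 12.1%, 11.99%, 11.4% and 13.7% in saline mice 1 to 4. All cocaine mice were thus below all saline mice, at 8.10 ± 2.34% against 12.3 ± 0.963% (adjusted p = 0.749). Where reads fell within the window differed too: 2 regions under 5% took 80.8% to 88.0% of the reads in cocaine mice and 75.9% to 79.7% in saline mice. With each cytosine weighted alike the levels were 8.45 ± 1.92% and 8.18 ± 1.15%, so the direction turned, and with coverage capped at 50 reads the difference was -1.49 points. The methylated stretch of the window, 902 bases before the start, had 40.8 ± 2.89% in the cocaine group against 44.9 ± 2.93% with saline (adjusted p = 0.913). Further out, 1234 bases before the start, 5 CpGs (chr17:56141490-56141664) had 15.7 ± 5.34% in cocaine and 7.84 ± 1.88% in saline mice, with all cocaine mice above all saline mice. The far end of Sema6b had 59.6 ± 3.77% and 64.1 ± 2.14% (adjusted p = 0.872).

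Sema6a held the semaphorin region of smallest p, 5 CpGs inside the gene (chr18:47269057-47269150). Cocaine mice read 54.2%, 70.4%, 53.6% and 54.2%, and saline mice read 77.9%, 80%, 72.1% and 86.8%. The highest cocaine mouse, number 2, stayed just below the lowest saline mouse, and the means were 58.1 ± 8.21% and 79.2 ± 6.05% (adjusted p = 0.876). Its 2 neighbouring regions within 1 kb had other values, at 83.8 ± 5.25% against 76.6 ± 10.3% and 75.7 ± 14.3% against 77.4 ± 3.30%. Sema5a, a semaphorin with thrombospondin repeats, had a region 21.5 kb from its start (chr15:32266269-32266417) with a higher mean in cocaine mice. It read 28.8%, 37.4%, 33.7% and 48.4% in cocaine and 26.6%, 13.4%, 31.1% and 28.0% in saline mice, and the groups overlapped (adjusted p = 0.876). The next region, 1216 bases away, leaned the other way, at 35.7 ± 9.99% against 40.5 ± 6.11%.

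Of 15 semaphorin interiors 12 had a lower mean in cocaine mice, as had 71.2% of all interiors. Sema6c had 45.4 ± 3.21% against 49.7 ± 3.15% (adjusted p = 0.720), and Sema7a, the lipid-anchored semaphorin, had the widest gap, 27.9 ± 5.63% against 33.6 ± 4.67% (adjusted p = 0.720). Sema3e, a ligand of plexin D1, had 69.9 ± 3.34% against 68.0 ± 2.80%, the largest higher mean (adjusted p = 0.858). Sema3f (33.1 ± 4.62% against 31.3 ± 2.31%) and Sema4d (77.0 ± 3.65% against 76.1 ± 2.64%) also had higher means, which turned lower with each cytosine weighted alike.

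Plexins and neuropilins, the semaphorin receptors, held 1 of the 6 lower and 2 of the 6 higher regions named by smallest p. Plxna4, which partners neuropilins in semaphorin 3 signalling, had 3 CpGs (chr6:32339395-32339464) at 27.1%, 21.1%, 10.0% and 42.2% in cocaine and 56.2%, 35.7%, 44.6% and 52.0% in saline mice. The groups overlapped through cocaine mouse 4, and the means were 25.1 ± 13.4% and 47.1 ± 9.01% (adjusted p = 0.876). Without cocaine mouse 3 and saline mouse 1 the gap narrowed from -22.0 to -14.0 points. Another Plxna4 region (chr6:32181814-32181854) had the widest range within a group of any guidance gene region, from 10.0% to 72.7% in cocaine mice, against 25.8% to 45.7% in saline mice. Its means, 34.6 ± 26.8% and 36.5 ± 9.42%, were the same within that spread. Plxna1 had a region (chr6:89353292-89353467) with a higher mean in cocaine mice, at 77.8%, 85.0%, 88.2% and 73.1% against 74.3%, 80.9%, 68.7% and 60.7%, and the groups overlapped (adjusted p = 0.876). Nrp2, the semaphorin 3F receptor, had 12 CpGs 46.6 kb inside the gene (chr1:62749805-62750068) at 30.4%, 16.5%, 9.03% and 26.8% in cocaine and 5.75%, 15.1%, 11.2% and 13.4% in saline mice. Its cocaine mouse 3 was lower than 3 of the saline mice (adjusted p = 0.876). The other neuropilin regions at p under 0.05 were lower in cocaine mice, at 49.9 ± 9.63% against 57.1 ± 2.66% in Nrp2 (chr1:62729306-62729389) and 17.6 ± 10.4% against 32.6 ± 9.17% in Nrp1 (chr8:128450725-128450799). Both neuropilin interiors and 5 of 6 plexin interiors had a lower mean in cocaine mice, as had 71.2% of all interiors. Plxna4 had the widest gap of these, at 33.1 ± 6.68% against 38.3 ± 3.44% (adjusted p = 0.731). No tested region was found in Plxna2.

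**Figure D5:**
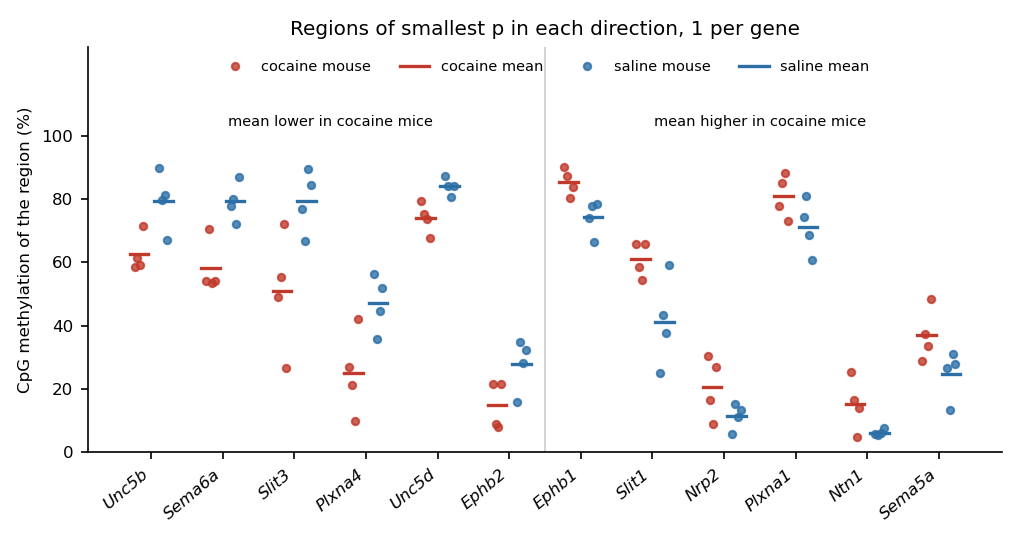
Methylation (%) of 12 guidance gene regions: the 6 of smallest p in each direction, lower or higher mean in cocaine mice, with 1 region per gene. Each dot is 1 mouse (cocaine red, saline blue) and bars are group means. Only the Sema6a, Unc5d and Ephb1 regions have groups that do not overlap, and each has an adjusted p of 0.876.

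Slit ligands differed from one gene to the next. Slit3 is the gene with the most tested regions, 44, and 5 of them were at p under 0.05 with a lower mean in cocaine mice. Among all tested regions 4.57% were lower at that p. Its region of smallest p lies 461 kb from the start (chr11:35582578-35582657) and read 49.0%, 55.4%, 72.2% and 26.7% in cocaine and 76.8%, 66.7%, 89.3% and 84.6% in saline mice. Those 3 CpGs rested on 30 to 123 reads per mouse, the groups overlapped, and the means were 50.8 ± 18.8% and 79.3 ± 9.90% (adjusted p = 0.876). Closer to the start, at 5.34 kb (chr11:35126757-35126842), cocaine mice had 25.9%, 16.7%, 2.56% and 29.4% and saline mice 46.4%, 32.1%, 29.9% and 60.0%, with no overlap. At 95.8 kb (chr11:35217203-35217261) the levels were 23.5 ± 8.31% and 43.2 ± 6.55%, again with no overlap. All cocaine mice lay below all saline mice in 2.59% of all tested regions. The whole Slit3 interior had 52.5 ± 4.23% against 56.1 ± 0.497% (adjusted p = 0.763), and the promoter window printed above had 0.563 ± 0.644% against 0.681 ± 0.594%.

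Slit1 had 3 of its 31 tested regions at p under 0.05, all in the other direction, where 1.08% of all regions were higher at that p. The first lies in the flank of the gene (chr19:41592994-41593074), at 65.7%, 58.6%, 54.4% and 65.8% in cocaine and 25.0%, 43.3%, 37.6% and 59.1% in saline mice, with saline mouse 4 above 2 cocaine mice (adjusted p = 0.876). Inside the gene, chr19:41670072-41670245 had 29.4 ± 2.52% against 20.2 ± 4.26%, and chr19:41649515-41649602 had 34.2 ± 2.67% against 20.2 ± 10.1%, both without overlap. All cocaine mice lay above all saline mice in 0.701% of all tested regions. The Slit1 interior as a whole had 27.7 ± 2.94% and 27.8 ± 3.49%, the same within the spread. A window at one end of Slit1 had 74.6 ± 5.92% and 78.6 ± 5.74% (adjusted p = 0.909). Its gap of -3.94 points ranged from -7.38 points without cocaine mouse 3 and saline mouse 1 to -1.20 points in other settings, and was -0.919 points with each cytosine weighted alike. Slit2, with 4 tested regions, had none at p under 0.05, and its interior had 15.1 ± 1.38% and 14.9 ± 2.98%.

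Robo receptors, which bind the Slits, held 2 regions at p under 0.05, or 5.41% of the 37 tested, against 5.65% of all regions. Robo2 had 29.5 ± 9.38% in cocaine and 43.3 ± 5.90% in saline mice at chr16:74644996-74645146, and Robo1 had 80.5 ± 4.08% and 88.2 ± 5.17% at chr16:72996471-72996592. Neither is near the inner starts printed above, where both groups were under 1% in nearly all regions. Interiors were 57.0 ± 4.97% and 59.1 ± 1.99% for Robo1, 57.4 ± 1.55% and 57.9 ± 2.59% for Robo2, and 41.0 ± 7.09% and 40.9 ± 2.64% for Robo3.

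All 5 netrin receptor interiors had a lower mean in cocaine mice, as had both neuropilin interiors and that of netrin 1. Unc5b, a receptor for repulsion by netrin 1, had the smallest p of all 49 interiors. Its 195 cytosines read 51.5%, 51.0%, 51.1% and 53.6% in cocaine mice 1 to 4 and 56.3%, 53.9%, 58.0% and 58.2% in saline mice 1 to 4. The groups did not overlap, at 51.8 ± 1.20% against 56.6 ± 1.95% (adjusted p = 0.720). Unc5d had 69.9%, 69.7%, 68.0% and 72.2% in cocaine and 74.1%, 72.8%, 73.5% and 74.4% in saline mice, again with no overlap (adjusted p = 0.720). With each cytosine weighted alike the gaps were -2.68 points for Unc5b and -2.06 points for Unc5d. The other 3 receptors had smaller or more variable gaps: Dcc, the attractive receptor, had 66.0 ± 1.02% against 68.1 ± 1.97%, Unc5a 34.0 ± 5.42% against 37.6 ± 2.57%, and Unc5c 81.1 ± 3.41% against 83.6 ± 3.51%. Of all interiors 71.2% were lower, and no test was made over the 5 receptors.

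Within Unc5b, 1 region of 8 CpGs lay 51.3 kb from the start (chr10:60780244-60780359) and had the smallest p of all 516 regions. Cocaine mice read 58.4%, 61.2%, 59.2% and 71.5% and saline mice 89.7%, 79.7%, 81.4% and 67.0%, so that saline mouse 4 fell among the cocaine mice. The means were 62.6 ± 6.08% and 79.5 ± 9.40% (adjusted p = 0.876). A region 227 bases away had 2.86 ± 1.91% and 2.41 ± 1.92%, so the difference lay at the border of a stretch with almost no methylation. Over all the settings that were tried the Unc5b gap ranged from -21.0 to -12.3 points. Unc5d had 3 CpGs (chr8:28707103-28707259) at 79.3%, 75.1%, 73.5% and 67.7% in cocaine and 87.4%, 84.1%, 80.7% and 84.1% in saline mice, with no overlap (adjusted p = 0.876). Of 62 netrin receptor regions tested, 6 were at p under 0.05, all lower in cocaine mice, 2 each in Unc5a, Unc5b and Unc5d. Among all 92484 regions, 4229 were lower and 1000 higher at that p. The far end of Unc5a read 56.8%, 51.9%, 46.0% and 55.4% in cocaine and 59.3%, 51.7%, 55.0% and 66.4% in saline mice. Its gap of -5.56 points was the largest of the 14 guidance gene end windows tested, and the groups overlapped (adjusted p = 0.855). It narrowed to -3.01 points without cocaine mouse 3 and saline mouse 1.

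Netrin 1 itself, the ligand of these receptors, had 35.0 ± 5.63% in cocaine and 39.3 ± 2.61% in saline mice over its interior (adjusted p = 0.754). Of its 23 tested regions, 3 were at p under 0.05, 2 lower and 1 higher, against 4.57% lower and 1.08% higher among all regions. The higher one, 3 CpGs at chr11:68384309-68384345, read 25.2%, 16.6%, 4.76% and 14.0% in cocaine mice and 5.80%, 5.45%, 6.03% and 7.58% in saline mice. Cocaine mouse 3 was below all saline mice and the other 3 were above them (adjusted p = 0.876). It borders a run of 87 CpGs, 298 bases away, that read 1.37 ± 1.29% and 1.61 ± 0.756%.

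Eph receptors, tyrosine kinases that bind ephrins, had a lower interior mean in cocaine mice in 8 of 9 genes, where 71.2% of all interiors were lower. Their median difference was -0.384 points, against -1.29 points over all interiors. In Epha2, Epha5, Epha7 and Ephb4 the difference lay between -0.384 and -0.0649 points. Epha8 had 70.6%, 75.0%, 73.2% and 72.0% in cocaine and 79.4%, 76.8%, 77.5% and 74.9% in saline mice, where saline mouse 4 lay just under cocaine mouse 2 (adjusted p = 0.720). Its start leaned the other way: 3 CpGs 764 bases inside the gene (chr4:136956062-136956129) had 22.8 ± 5.76% in cocaine and 14.1 ± 2.51% in saline mice. Ephb3 was the exception among the interiors, at 41.8 ± 3.38% against 40.1 ± 1.52%, and it turned lower with each cytosine weighted alike. Ephb2, which helps build excitatory synapses, had 3 of 37 tested regions at p under 0.05, all lower, where 4.57% of all regions were lower at that p. The first of them, 9 CpGs 49.7 kb from the start (chr4:136786469-136786693), read 21.5%, 8.93%, 8.10% and 21.6% in cocaine and 15.8%, 35.0%, 28.1% and 32.2% in saline mice, with saline mouse 1 below 2 cocaine mice (adjusted p = 0.876). Ephb1 had the smallest p of the regions with a higher mean, 3 CpGs 251 kb from the start (chr9:102103900-102103993). These read 90.1%, 87.3%, 80.2% and 83.7% in cocaine and 74.0%, 77.9%, 66.3% and 78.4% in saline mice, with no overlap (adjusted p = 0.876). Epha2 had 3 of 14 tested regions at p under 0.05, all lower, while its interior as a whole had 83.1 ± 1.20% and 83.2 ± 1.16%.

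Ephrins, the ligands of Eph receptors, had 32 tested regions. None of them was at p under 0.05, 16 had a lower and 16 a higher mean, and the median difference was -0.0651 points. Both ephrin end windows tested had a slightly higher mean in cocaine mice. The far end of Efna2 read 19.2%, 22.3%, 22.4% and 20.6% in cocaine and 17.6%, 23.8%, 18.8% and 15.0% in saline mice (adjusted p = 0.901), and the start of Efna1 had 5.78 ± 1.55% and 5.69 ± 1.63% (adjusted p = 0.998). Efnb2, a ligand of EphB receptors, had the widest interior gap of the ephrins, 34.8 ± 2.33% against 39.2 ± 2.96% (adjusted p = 0.720), and Efna5 had 47.5 ± 7.44% and 48.0 ± 3.19%.

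Other genes of the pathway were counted by their regions in the same way. The 43 intracellular effectors had 383 tested regions, of which 18 were lower and 1 higher at p under 0.05, or 4.96% against 5.65% of all regions. Crmp1, a collapsin response mediator, had 10.7 ± 4.02% and 29.7 ± 9.55%, Vav2 had 57.4 ± 12.5% and 77.8 ± 6.94%, and Trio had 67.6 ± 6.75% and 80.5 ± 4.28%. The 22 other members of the same families had 73 tested regions, 3 of them (4.11%, against 5.65% of all regions) at p under 0.05 and all lower. These were Ntn5 (54.5 ± 4.35% and 64.2 ± 5.96%), Ntng1 (51.6 ± 1.21% and 59.2 ± 5.16%) and Ntn4 (92.6 ± 0.915% and 96.9 ± 0.882%), netrins or netrin relatives. The 26 other guidance cues and receptors had 133 tested regions, 5 lower and 1 higher at p under 0.05, or 4.51% against 5.65%. Fzd3, a Wnt receptor, had 83.9 ± 4.18% and 91.6 ± 2.21%, Draxin, which binds Dcc, had 88.7 ± 5.97% and 95.3 ± 1.49%, and Rgma, a ligand of neogenin, had 11.5 ± 13.8% and 3.14 ± 2.73%. The adjusted p was 0.876 or more for every region of these lists.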

How the data were processed

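Levels and read counts came from 8 libraries, 4 per group, grouped by the sample titles. Reads were handled with bcl2fastq and Bismark 22.1 against mm10, per the submitters' processing notes, and no source used here describes trimming or removal of duplicates. The methylation column, a percent per the file headers, was deposited as a fraction between 0 and 1, and was multiplied by 100. The authors deposited read coverage as a count for every cytosine, with a minimum of 10. Level times coverage gave whole methylated reads for all cytosines (100% in each file).

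Cytosines with at least 10 reads in all 8 libraries were summed over windows reaching 1 kb to both sides of each gene end, over interiors, and over regions (gaps of at most 100 bases, at least 3 CpGs). Windows and interiors needed at least 5 cytosines. Features with a pooled level of 5% to 95% were tested with a quasi-binomial regression on group, with dispersions moderated by limma 3.58.1 (squeezeVar) in R 4.3.3, and Benjamini-Hochberg adjustment over each whole table. The code was tested on simulated data. Other work used Python 3.11.15 with pandas 2.3.3. Gene spans, strands and promoter sequences are RefSeq's on GRCm38.p6, and 41 of the 51 genes matched a promoter entry; exons and introns are not told apart here. Genes were named by smallest p within each direction, by the extremes of level, by intermediate end levels and by the widest range within a group, plus up to 3 genes for each other pathway list. Genes and lists were chosen with earlier results of these data known. Nothing says how the mice were handled beyond the labels, so p-values measure the spread between these 8 libraries. Limits given for a count of 0 (3 reads) cover counting error only, because reads without molecular identifiers are not independent molecules.

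The labels do not say whether replicate numbers pair the mice, so the main test used no pairing. Deviations from the group mean of same-numbered cocaine and saline mice correlated at -0.0351 to 0.0851. Such values cannot show whether mice were handled in pairs. Alternatives were limma on logit levels, a minimum of 20 reads, no filter on level, coverage capped at 50 reads, a replicate block, windows of 500 bases, at least 5 CpGs, and each mouse left out. After the data were seen, a fit without cocaine mouse 3 and saline mouse 1, and differences with each cytosine weighted alike, were added.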

Additional observations from a re-analysis of the deposited data

Results flagged for a closer look

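In 80 groups of 4 mice examined over the named features, 6 held 1 mouse whose distance to its nearest neighbour was, as a share of the group's range, above Dixon's critical value for 4 samples, and chance gives this in about 1 of 20 groups. The far end of Nrp2 had 89.96% in saline mouse 3 and 94.3% to 95.03% in the other saline mice. At one end of Sema6a, cocaine mouse 2 had 44.8% against 33.6% to 34.5% in the other cocaine mice, and saline mouse 1 had 44.8% against 37.1% to 38.0%. Inside Sema6a, in the region of smallest p among the semaphorins, cocaine mouse 2 had 70.4% against 53.6% to 54.2%. The end window of Slit1 had 69.99% in saline mouse 1 and 80.5% to 81.9% in the other saline mice. The interior of Slit2 had 19.3% in saline mouse 2 and 13.1% to 14.1% in the rest. What sets these mice apart was not tested.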

How the results depend on the processing

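No guidance gene feature passed the test under any alternative, and the smallest adjusted p among them was 0.205 (interiors, without cocaine mouse 4). With the replicate number as a replicate block, 1 of 92484 regions was called, outside these genes, and the block changed no other call. Of 26 features named by p, 22 kept their direction under all the tested alternatives. The start of Efna1 turned to -0.238 points with coverage capped at 50 reads, -0.0474 points without cocaine mouse 3 and saline mouse 1, and lay between -0.691 and 0.739 points with 1 mouse left out. Capping turned the interiors of Sema3f to -2.71 and Ephb3 to -1.01 points, and Sema4d lay between -0.745 and 2.10 points with 1 mouse left out. Weighting each cytosine alike gave 0.269 points for the Sema6b start, -0.653 for Efna1, -1.15 for Sema3f, -1.92 for Ephb3 and -0.439 for Sema4d. The cause of these turns was not tested.

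Counts at p under 0.05 moved more. End windows with a lower mean numbered 1, and 2 without the filter on level or without cocaine mouse 3 and saline mouse 1, 0 with capped coverage and 0 in 500 base windows (where 2 were higher). With 1 mouse left out they were 0 to 2 lower and 0 to 1 higher. Over all end windows, 375 of 7336 were lower, 932 of 20903 without the filter and 432 of 7379 with capped coverage. In 500 base windows 194 of all 4026 were lower and 40 higher. Lower interiors numbered 3, and 1 with limma on logit levels, 13 with capped coverage and 1 to 11 with 1 mouse left out. Over all interiors they numbered 900, and 878, 1421 and 569 to 1783 in those settings. Lower regions numbered 27 of 516, and 14 of 255 with at least 5 CpGs, against 4229 of 92484 and 2123 of 43827 over all regions. Higher regions numbered 10, and 6 at 20 reads, 16 without the filter, 3 with at least 5 CpGs and 5 to 14 with 1 mouse left out. Over all regions they numbered 1000, and 672, 2081, 413 and 727 to 1427 in those settings. The guidance gene regions tested numbered 363 at 20 reads and 693 without the filter. Median levels with each cytosine weighted alike were 43.3% for interiors (37.1% pooled) and 1.31% for end windows (0.946% pooled). The Slit3 region named first rests on 30 to 123 reads per mouse.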
